A study of Mus musculus with 24 samples.

Results

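The collagen chain genes of mouse pancreatic tumours are described here: every protein-coding gene of the count table whose symbol reads Col, a number, a and a number. The rule finds 44 genes of 54532, of which 11 are fibrillar, 6 basement membrane, 9 fibril-associated and 18 of other kinds. Bulk RNA sequencing covered 24 samples collected on day 24, which fall into 4 groups of 6, named PBS (buffered saline, the control), GEM, IGEL and LIGEL. The series title speaks of priming with losartan, an angiotensin receptor blocker, ahead of a nanocarrier, with stromal remodelling as the theme, but the labels neither expand the 3 treated group names nor say which group received which agent or dose. The mouse strain, the tumour model and the animals' age are not given in the sources used here. All 4 groups are labelled as pancreatic tumour, and nothing says whether the 6 samples of a group are 6 animals. A p-value here thus reflects no more than the spread among the samples of a group, part of which may be technical.

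Collagens are secreted proteins built from 3 chains wound into a triple helix. Fibrillar chains (types I, II, III, V, XI, XXIV and XXVII) assemble into the rope-like fibres that give tissue its tensile strength, type IV chains form the sheet under epithelia and around vessels, and fibril-associated collagens decorate the fibre surface. In pancreatic cancer a dense collagen stroma, made largely by activated fibroblasts (stellate cells), surrounds the tumour cells and is a recognised barrier to drug delivery.

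To let a reader compare the regulatory start regions of fibrillar chains whose RNA did and did not vary together in these tumours, 3 promoter windows are printed here. Each is the 250 bases before the RefSeq gene start on build GRCm38.p6, 5′ to 3′ on the gene's strand. Capitals mark matches to 4 short motifs. They are CCAAT, known as the box bound by NF-Y, then GGGCGG, known as the GC box bound by Sp1, then TATAAA, known as the TATA box, and CAGACA, known as an element bound by Smad factors. Both strands were searched, so a match may show as the reverse complement. No 2 marked matches overlap. The windows lie at chr1:45311288-45311537 on the plus strand (Col3a1), chr2:27886175-27886424 on the plus strand (Col5a1) and chr9:20815068-20815317 on the minus strand (Col5a3).
Col3a1: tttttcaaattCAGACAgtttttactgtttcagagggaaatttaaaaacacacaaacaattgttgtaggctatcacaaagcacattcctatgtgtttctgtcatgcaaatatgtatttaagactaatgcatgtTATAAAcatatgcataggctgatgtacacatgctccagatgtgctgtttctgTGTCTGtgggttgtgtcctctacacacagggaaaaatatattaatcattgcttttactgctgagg
Col5a1: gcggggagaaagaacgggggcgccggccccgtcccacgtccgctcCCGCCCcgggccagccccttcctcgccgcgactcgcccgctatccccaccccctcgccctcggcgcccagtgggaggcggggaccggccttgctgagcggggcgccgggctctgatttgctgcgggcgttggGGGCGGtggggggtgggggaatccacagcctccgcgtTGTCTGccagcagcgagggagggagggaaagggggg
Col5a3: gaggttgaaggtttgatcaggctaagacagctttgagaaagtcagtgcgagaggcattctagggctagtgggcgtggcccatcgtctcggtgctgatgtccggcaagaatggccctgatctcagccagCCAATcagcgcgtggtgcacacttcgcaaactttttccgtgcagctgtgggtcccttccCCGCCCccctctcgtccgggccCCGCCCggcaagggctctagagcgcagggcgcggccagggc

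The Col3a1 window held TATAAA once and CAGACA or its reverse 2 times, and its GC content was 35.2%. The Col5a1 window was GC-rich at 76.4%, with 2 GGGCGG matches and 1 CAGACA match, and the Col5a3 window (62.8% GC) held CCAAT once and GGGCGG 2 times. RefSeq windows were matched by symbol for 35 of the 44 genes (38 windows, since some genes have more than one start), and median GC content was 59.0% over these against 52.4% over all 32851 windows. GGGCGG occurred in 57.9% of the collagen windows and in 32.7% of all windows of the same length. The other motifs were found at shares of 34.2% against 33.8% (CCAAT), 13.2% against 12.4% (TATAAA) and 23.7% against 17.1% (CAGACA). These matches are letters in a window and were not tested as sites.

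Library totals ranged from 27.1 to 40.5 megacounts (1 megacount is 1000 times 1000 counts), and collagen chains took 0.414% (Wilson 95% interval 0.411 to 0.416%, counting error only) to 4.35% (4.35 to 4.36%) of them. PBS replicate 5 stood apart: 35.3% of its counts came from 13 acinar genes (digestive enzymes of the exocrine pancreas), against 0.00527 to 15% in the other 23 libraries, and its trimmed-mean (TMM) scaling factor was 0.548 against 0.850 to 1.09 elsewhere. Although the sample titles say muscle, the summed level of 8 skeletal muscle markers was 9.37 to 23.7 CPM (counts per megacount) in 23 libraries. In IGEL replicate 4 it was 282 CPM. Myh2 and Myh4 were at 0 in 21 of 24 libraries, Ckm in 14, Myh1 in 8 and Acta1 in 6. Ttn, Tnnt3 and Mylpf had counts in every library, at 3.16, 0.743 and 0.409 CPM or more. The 10 fibroblast markers summed to 375 to 1526 CPM. Of them Tagln was at 0 in 2 libraries and at 0.471 CPM or less, while the others had counts in every library. The 8 cartilage markers summed to 2.11 to 9.05 CPM. In 6 libraries (GEM replicates 1 to 3, IGEL replicate 1, LIGEL replicates 1 and 2) the count column is named A1 to A3, a naming that no PBS library has.

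Type I and type III collagen led the collagen RNA of these tumours. Levels are given as FPKM, counts per kb of the deposited gene length per megacount after TMM scaling, averaged over 24 libraries unless a group is named. Col1a1, the α1 chain of type I collagen and the main chain of most fibres, was the highest at 872 ± 516 FPKM (SD, n = 24), which is 39.5% of all collagen FPKM. Next came Col3a1, the single chain of type III collagen, at 389 ± 198 FPKM. Basement membrane chain Col4a1 stood at 144 ± 28.4 FPKM and Col1a2, the partner of Col1a1 in type I, at 139 ± 100 FPKM. The spreads of Col4a1 and Col1a2 overlapped, as did those of Col6a1 (109 ± 39.7), Col4a2 (101 ± 23) and Col5a1 (87.0 ± 29.9), so the order within these neighbours is not beyond their spread.

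**Figure D1:**
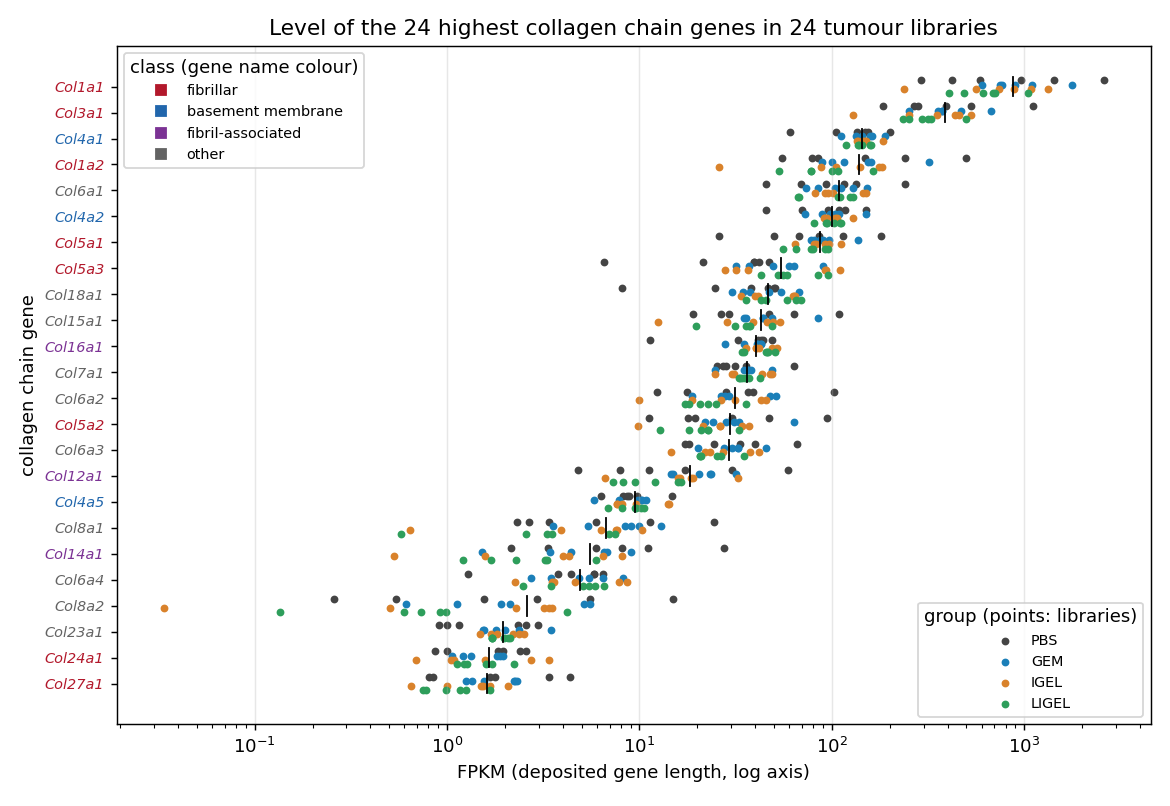
Level of the 24 highest collagen chain genes, with FPKM on a log axis and genes ordered by their mean (black line). Each point is 1 library, coloured by group, and name colours give the class. Col1a1 and Col3a1 lead, and the lowest of the 24 genes, Col27a1, averages 1.62 FPKM.

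Gene length matters for this order. The deposited length of Col1a2 is 12426 bases, against 5348 bases for its longest protein-coding transcript in GENCODE M21. With transcript lengths, an alternative chosen after seeing the data, Col1a2 was at 323 FPKM and rank 3, Col1a1 at 966 FPKM, and Col3a1 at 686 FPKM. Fold changes between groups do not use length.

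Among the fibrillar genes, 11 of 11 passed the expression filter, but their levels spanned a wide range. Col5a3, the α3 chain of type V, reached 54.6 ± 26.9 FPKM, higher than Col5a2 (29.5 ± 18), the α2 chain of the common type V form. Col24a1, Col27a1, Col11a1, Col11a2 and the cartilage gene Col2a1 stayed at means of 1.65 FPKM or less. In the basement membrane class Col4a5 was at 9.47 ± 2.31 FPKM, and the kidney-type chains Col4a3 and Col4a4 had 401 and 1005 counts summed over all 24 libraries. Fibril-associated collagens were led by Col16a1 (40.3 ± 8.53 FPKM), Col12a1 (18.2 ± 11.6) and Col14a1 (5.52 ± 5.43), followed by Col9a3 at a median of 0.544. Of the other collagens, microfibril chain Col6a1, the endostatin precursor Col18a1 (46.3 ± 15.2), Col15a1 (42.8 ± 20.8) and the anchoring fibril gene Col7a1 (36.4 ± 9.23) were the highest.

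The 6 genes that did not pass the filter were Col9a1, Col9a2, Col19a1, Col10a1, Col25a1 and Col26a1. Col9a1, a cartilage chain, had 1 count in all 24 libraries together, and Col10a1, the marker of hypertrophic cartilage, had 177.

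Before any comparison of groups, the libraries themselves differed up to 10.8-fold in Col1a1. Col1a1 was 2583 FPKM in PBS replicate 1, 1774 in GEM replicate 4, 292 in PBS replicate 5 and 238 in IGEL replicate 1. The highest and the lowest but one therefore both belonged to the control group. Fibrillar chains summed to 4498 FPKM in PBS replicate 1 and to 579 FPKM in IGEL replicate 1, where they made up 80.0 and 53.2% of all collagen FPKM. Summed fibroblast markers were 1526 CPM in PBS replicate 1 and 383 CPM in IGEL replicate 1, and smooth muscle and pericyte markers (317 and 43.4 CPM), leukocyte markers (557 and 199 CPM) and endothelial markers (456 and 237 CPM) differed in the same direction. PBS replicate 5, whose fibrillar chains summed to 580 FPKM, had 849 CPM of fibroblast markers, more than most libraries with TMM scaling. Both sums rest on its TMM factor of 0.548, and the rank of the marker sum depends on that scaling. Of these markers Dcn (319 CPM) and Dpt (133 CPM) were each highest in this library. In bulk tissue, fewer cells of a type and less RNA per cell cannot be told apart.

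**Figure D2:**
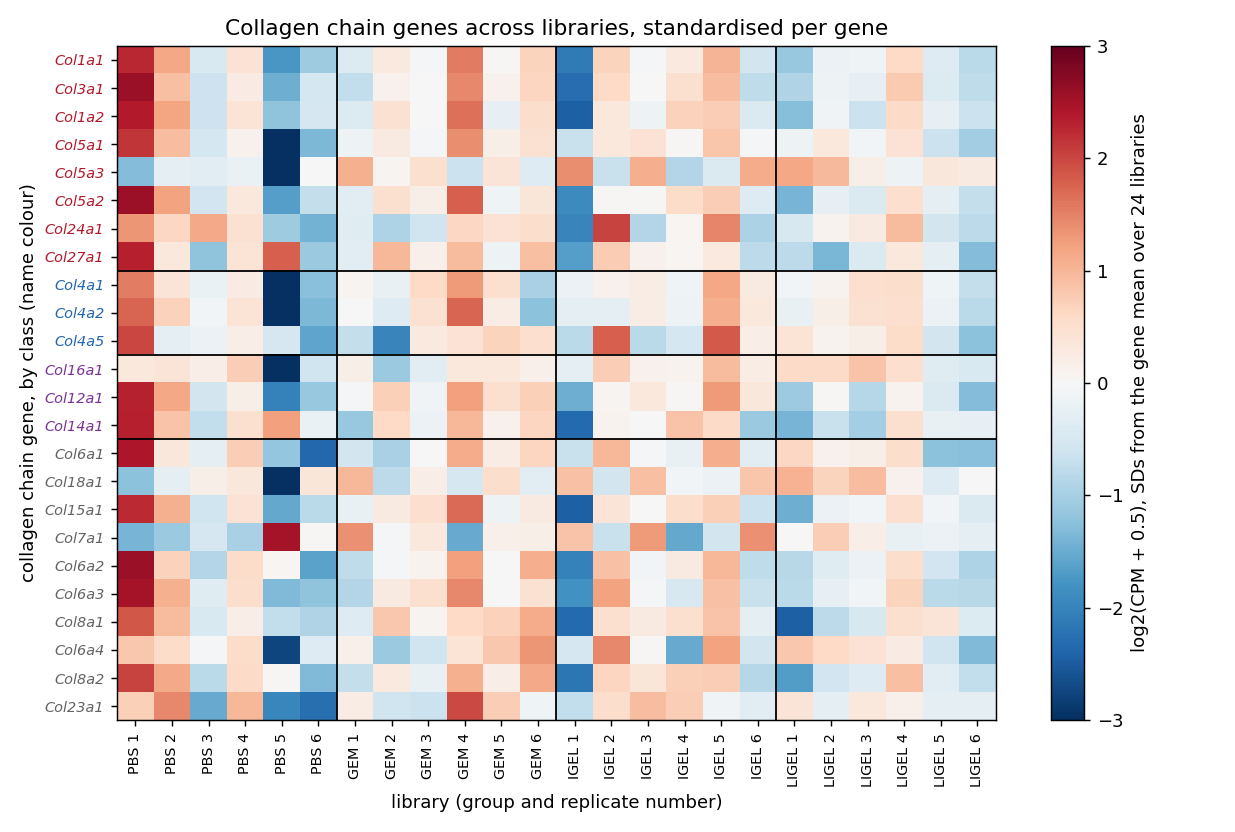
The same 24 genes (rows, grouped by class) in each library (columns), as log2(CPM + 0.5) in SDs from the gene's mean, with colours ending at 3 SDs. PBS 1 and GEM 4 are red and IGEL 1 blue over most stromal chains, whereas Col5a3, Col18a1 and Col7a1 run against them.

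Col1a1, Col1a2, Col3a1 and Col5a2 rose and fell together across libraries, as did Col4a1 with Col4a2 and Col5a1 with Col5a2. Some of these pairs share a protein, whereas others are chains of different collagen types. Over 24 libraries the log2 CPM of Col1a1 and Col1a2 correlated with Pearson r = 0.965 and Spearman rho = 0.943, and Col1a1 and Col3a1 with r = 0.978 and rho = 0.983. Col1a1 also followed Col5a2 (r = 0.971, rho = 0.957), and Col4a1 followed Col4a2 (r = 0.977, rho = 0.949). For Col5a1 and Col5a2 r was 0.833 (rho 0.886). All these had a permutation p of 1e-05 for r and for rho, the smallest that 100000 resamples give, and an adjusted p of 1.62e-05 (r) and 1.86e-05 (rho) over 13 pairs. Without the 2 libraries farthest from the median r was 0.944, 0.969, 0.956, 0.969 and 0.790 in the order given. Depth and composition are shared by both genes of a pair, since both come from the same library.

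Type VI chains gave lower coefficients. Col6a1 correlated with Col6a2 at r = 0.803 and rho = 0.781 (permutation p = 1e-05 and 3e-05) and with Col6a3 at r = 0.822 and rho = 0.840 (both 1e-05). Without the 2 farthest libraries these were r = 0.669 and 0.754. Within the 6 libraries named A1 to A3 they were r = 0.148 and 0.081, and in the other 18 libraries 0.909 and 0.933. Col1a1 against Col6a1 gave r = 0.752 and rho = 0.767 overall (permutation p = 2e-05 and 3e-05) and r = 0.697 without the 2 farthest libraries. Within the A1 to A3 libraries this pair gave r = -0.08, against 0.891 in the others. Col1a1 correlated with the basement membrane chain Col4a1 at r = 0.668 and rho = 0.617 (permutation p = 0.00034 and 0.00164), r = 0.694 without the 2 farthest libraries, 0.397 within the A1 to A3 libraries and 0.787 in the others. No test compared these correlations with one another.

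Col5a3 and Col7a1 did not follow type I collagen. These pairs were picked after the values were seen, so their correlations are given as a description. For Col1a1 and Col5a3 rho was -0.563 and r -0.258. The value of r depends on single libraries: without PBS replicate 5 it was -0.771, and without PBS replicate 1 and IGEL replicate 1, the 2 farthest from the median of Col1a1, it was -0.003. Within the 6 libraries named A1 to A3 it was -0.835, against -0.004 in the other 18. Col1a1 against Col18a1 gave rho = -0.51 and r = -0.117, which became -0.712 without PBS replicate 5 and 0.115 without the 2 farthest libraries, and was -0.648 within the A1 to A3 libraries and 0.098 in the others. Col1a1 against Col7a1 gave r = -0.691 and rho = -0.643, and r = -0.662 without the 2 farthest, -0.238 within the A1 to A3 libraries and -0.722 in the others. Col5a3 and Col18a1 followed each other, at r = 0.908 and rho = 0.801. Of the printed start regions, that of Col3a1 belongs to a gene that tracks Col1a1 and that of Col5a3 to one that does not.

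**Figure D3:**
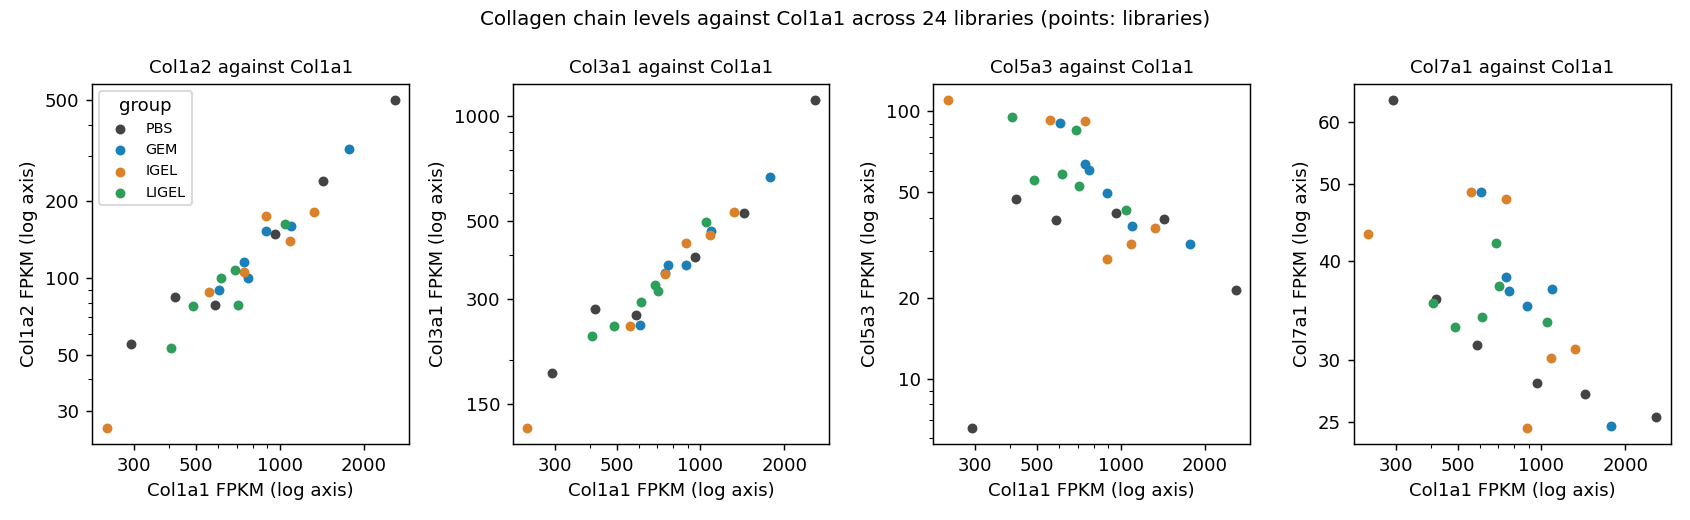
FPKM of Col1a2, Col3a1, Col5a3 and Col7a1 against that of Col1a1, both axes logarithmic, 1 point per library coloured by group. Col1a2 and Col3a1 lie along a line, Col5a3 is lower where Col1a1 is higher except in PBS replicate 5 (6.54 FPKM), and Col7a1 is highest in that library (63.9 FPKM).

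Ratios between partner chains spanned a narrower range than the chains. Per deposited length there were 6.63 ± 1.13 Col1a1 for each Col1a2 (mean and SD, n = 24, range 4.98 to 9.24), which became 3.16 ± 0.540 with transcript lengths. The Col4a1 to Col4a2 ratio was 1.44 ± 0.0760, from 1.25 to 1.58, and Col3a1 to Col1a1 was 0.472 ± 0.0732. In the annotation Col4a1 and Col4a2 lie head to head on chromosome 8 and overlap by 22 bases, and without a stated strand setting reads in that overlap cannot be assigned. Col5a2 to Col5a1 was more variable, at 0.326 ± 0.0854.

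Over 6 ratios and 6 comparisons, 36 exact two-sided permutation tests gave 5 with an unadjusted p under 0.05 and none after Benjamini-Hochberg adjustment (smallest adjusted p = 0.281, smallest possible p = 0.00216 for 6 against 6). Col5a2 to Col5a1 averaged 0.394 ± 0.0812 in PBS, 0.286 ± 0.0844 in IGEL and 0.282 ± 0.0715 in LIGEL (SD, n = 6). On the log2 scale the difference from PBS was -0.49 in IGEL (exact permutation p = 0.039) and -0.50 in LIGEL (exact permutation p = 0.026). Both groups overlapped PBS, whose lowest library was at 0.287. Col4a1 to Col4a2 was 0.09 higher in IGEL than in PBS (exact permutation p = 0.0346) and 0.08 higher in LIGEL (exact permutation p = 0.039), on the log2 scale. Col3a1 to Col1a1 was 0.19 higher in LIGEL than in GEM (exact permutation p = 0.0281).

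The groups were then compared gene by gene with edgeR's quasi-likelihood test over the 19253 genes that passed the filter, 38 of them collagen chains, and a Benjamini-Hochberg adjusted p below 0.05 made a gene count as called. No collagen chain was called in any of the 6 comparisons, and neither was any other gene (0% of all genes tested in each). No chain had groups that did not overlap, where 0.0935% (GEM against PBS), 0.452% (IGEL against PBS), 1.02% (LIGEL against PBS), 0.109% (IGEL against GEM), 0.223% (LIGEL against GEM) and 0.119% (LIGEL against IGEL) of all genes tested did. The 3 comparisons with PBS share the same 6 control samples, as the comparisons with GEM or IGEL share theirs. Limma voom with sample quality weights called no collagen chain in any comparison either, beside 0.327, 1.98 and 3.81% of all genes in GEM, IGEL and LIGEL against PBS and 0% in the 3 others.

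Type I collagen gives the scale of the spread. The lowest, median and highest Col1a1 were 292, 773 and 2583 FPKM among PBS libraries. Among GEM libraries they were 606, 829 and 1774, among IGEL 238, 816 and 1323, and among LIGEL 408, 651 and 1044. PBS spanned the whole range of GEM and LIGEL, and LIGEL had the narrowest range. The log2 fold change of LIGEL against PBS was -0.67 ± 0.44 (SE, unadjusted p = 0.144, adjusted p = 0.386 by edgeR). Without PBS replicate 1 it was -0.16. Col1a2 was at 54.9, 117 and 499.8 FPKM in PBS and at 52.9, 89.1 and 163 FPKM in LIGEL, with a log2 fold change of -0.93 ± 0.49 (unadjusted p = 0.0679) that became -0.33 without PBS replicate 1. Col3a1 ran from 184 to 1110 FPKM in PBS (median 337) and from 236 to 499 FPKM in LIGEL (median 305). Its log2 fold change of -0.52 ± 0.37 (unadjusted p = 0.171) became -0.04 without PBS replicate 1. Without PBS replicate 5 the fold changes moved the other way, to -0.86 (Col1a1), -1.12 (Col1a2) and -0.68 (Col3a1). Their unadjusted p by edgeR were then 0.0516, 0.0285 and 0.0657, and their adjusted p 0.330, 0.267 and 0.356.

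**Figure D4:**
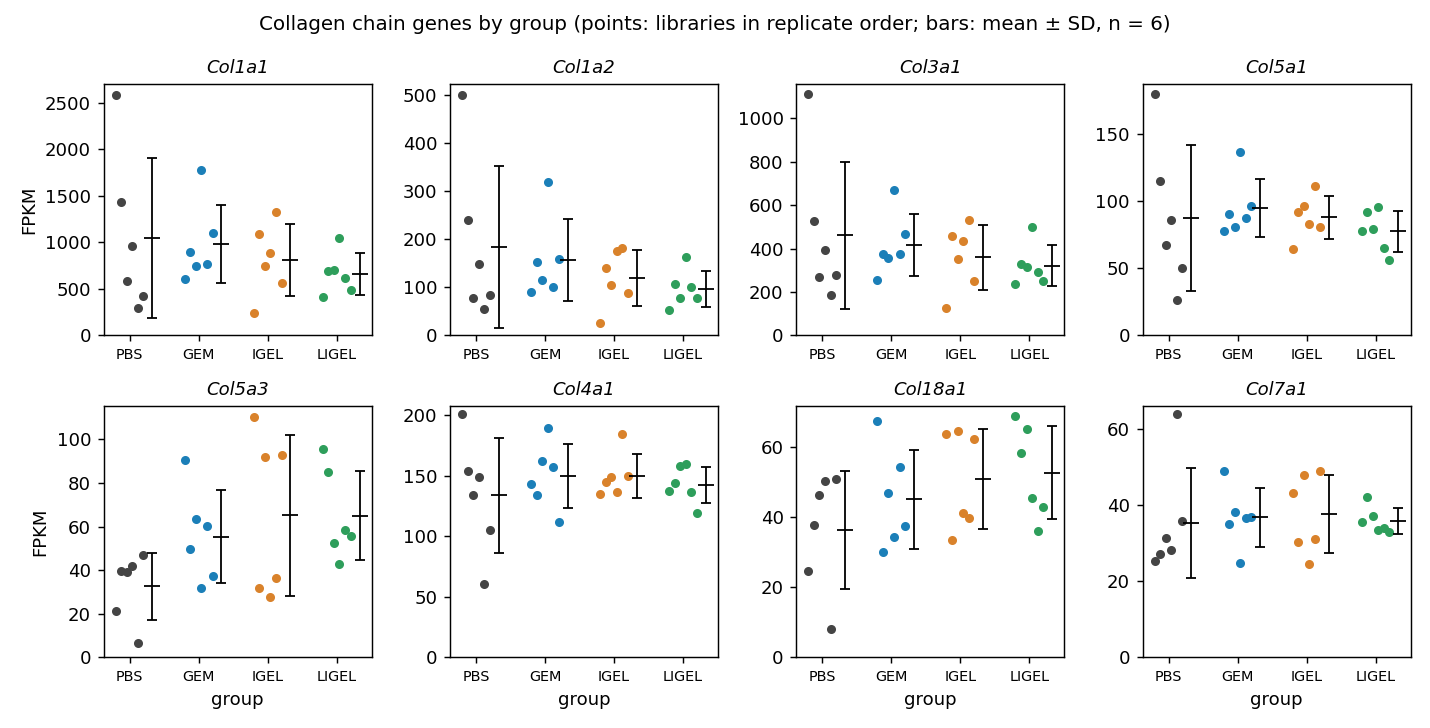
FPKM of 8 collagen chain genes by group, 1 point per library in replicate order, with mean ± SD (n = 6) beside the points. For the type I and III genes PBS holds both very high and low libraries, and for Col5a3 the 6 PBS libraries lie between 6.54 and 47.0 FPKM, within or below the other groups' ranges.

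Col5a3 had the highest fold change of the 38 chains in each comparison with PBS. Its lowest, median and highest FPKM were 6.54, 39.3 and 47.0 among PBS libraries, 31.8, 54.9 and 90.5 among GEM, 27.9, 64.2 and 110 among IGEL, and 42.9, 57.0 and 95.5 among LIGEL. Of the 6 PBS libraries 5 stood under the lowest LIGEL library, and the exception was PBS replicate 6. Fold changes on the log2 scale were 0.77 ± 0.40 in GEM (SE, unadjusted p = 0.067), 1.0 ± 0.40 in IGEL (unadjusted p = 0.0201, adjusted p = 0.306 by edgeR) and 1.0 ± 0.40 in LIGEL (unadjusted p = 0.0206, adjusted p = 0.173 by edgeR). None passed the adjusted threshold. Without PBS replicates 1 and 5 together, an alternative chosen after seeing the data, they were 0.39, 0.62 and 0.62, and without the 6 libraries named A1 to A3 they were 0.38, 0.76 and 0.67.

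In LIGEL against PBS the collagen chains lay lower than the transcriptome as a whole: the median log2 fold change was -0.71 over the 38 chains and -0.03 over all genes tested. There 27 chains were lower and 11 higher, beside 53.5% of all genes lower. Class medians were -0.52 (fibrillar), -0.76 (basement membrane), -1.02 (fibril-associated) and -0.49 (other). They weigh minor and abundant chains alike and do not describe the class totals. Summed FPKM had medians of 1364 in PBS and 1206 in LIGEL for fibrillar chains, and 253.5 and 248.7 for basement membrane chains. It was 63.9 and 59.5 for fibril-associated chains, and 300 and 302 for the others. An unadjusted p under 0.05 was reached by 10 of 38 chains (9 lower, 1 higher), beside 20.5% of all genes tested and 14.2% lower ones. With single libraries left out the median ran from -0.87 (without LIGEL replicate 4) to -0.17 (without PBS replicate 1). Without PBS replicate 5 it was -0.67, with 30 of 38 chains lower. There 12 chains reached an unadjusted p under 0.05, beside 2998 of all 19525 genes. The median was -0.35 in limma voom with sample quality weights and -0.21 without PBS replicates 1 and 5. In the latter setting 0 chains reached an unadjusted p under 0.05, beside 14% of all genes. Markers of several cell types lay lower as well. In the same comparison 8 of 10 fibroblast markers were lower (median log2 fold change -0.55, 3 with an unadjusted p under 0.05), with summed levels of 375 to 1526 CPM in PBS and 439 to 828 CPM in LIGEL. Lower too were 6 of 7 smooth muscle and pericyte markers (median -0.96), 7 of 8 endothelial markers (-0.47) and all 4 tested mesothelial markers (-1.49). So were all 3 tested Schwann cell markers (-1.24) and all 13 acinar markers (-2.99), whereas 4 of 5 leukocyte markers were higher (0.33). Epithelial markers were mixed, with 5 of 8 lower and 3 higher (median -2.18). Their summed level was not lower, at medians of 959 CPM in PBS and 996 CPM in LIGEL. The part of these cells in the collagen values was not tested.

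The chains with the smallest p in LIGEL against PBS were minor ones. Col13a1, a transmembrane collagen of cell contacts, was at a lowest, median and highest of 0.127, 0.258 and 1.82 FPKM in PBS and 0.0377, 0.112 and 0.170 in LIGEL, from 21 to 124 counts against 6 to 29. The top PBS value is that of PBS replicate 5, and the groups overlapped. Its log2 fold change was -2.31 ± 0.63 (SE, unadjusted p = 0.00127, adjusted p = 0.124 by edgeR), and -1.31 without PBS replicate 5. Col6a6, a type VI chain of muscle and skin, had 15 to 1171 counts in PBS and 2 to 80 in LIGEL, with FPKM medians of 0.391 and 0.0301. The highest value, 3.76 FPKM, is that of PBS replicate 1. Its log2 fold change was -3.93 ± 1.09 (unadjusted p = 0.00143, adjusted p = 0.124 by edgeR). Col6a5 had 13 to 123 counts in PBS and 2 to 40 in LIGEL, FPKM medians of 0.0887 and 0.0254, and a log2 fold change of -2.08 ± 0.71 (unadjusted p = 0.00747). Col14a1, a fibril-associated collagen that bridges fibres to decorin, ran from 2.15 to 27.5 FPKM in PBS (median 7.02) and from 1.21 to 5.91 FPKM in LIGEL (median 2.76), with a log2 fold change of -1.72 ± 0.60 (unadjusted p = 0.00884, adjusted p = 0.140 by edgeR) that became -1.05 without PBS replicate 1. Without PBS replicates 1 and 5 together the log2 fold changes were -1.05 (Col13a1), -2.06 (Col6a6), -0.48 (Col6a5) and -0.75 (Col14a1).

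DESeq2 called these 4 chains and no others in LIGEL against PBS, with adjusted p of 0.00815 (Col6a6), 0.00898 (Col13a1), 0.0339 (Col6a5) and 0.0355 (Col14a1), where it called 5.87% of the genes it tested. In the other 5 comparisons DESeq2 called 0 chains, beside 0.312% of genes in IGEL against PBS and 0% in the rest. With TMM scaling PBS replicates 1 and 5 held the 2 highest values of all 24 libraries for Col6a6 (3.76 and 1.72 FPKM), Col6a5 (0.385 and 0.567) and Col14a1 (27.5 and 11). Per megacount of the library total they still did for Col6a6 (3.645 and 0.943) and Col6a5 (0.373 and 0.310). Col14a1 in PBS replicate 5 was then 6.03, under 9.06 in GEM replicate 4 and 8.46 in PBS replicate 2. With TMM scaling PBS replicates 1 and 5 had the highest sums of the 6 Schwann cell markers (66.0 and 63.2 CPM against 6.68 to 32.4 in the others). Their sums of the 7 smooth muscle and pericyte markers were 317 and 280 CPM, against 43.4 to 174. The TMM factor of PBS replicate 5 was 0.548, and its place in the smooth muscle and pericyte sums depends on that scaling. The part of these cells in the collagen values was not tested.

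In IGEL against PBS the median of the chains lay nearer to 0. The median log2 fold change was -0.36 over the chains and -0.02 over all genes, with 25 of 38 chains lower beside 52.9% of all genes. Without PBS replicate 1 the chains' median was 0.12. An unadjusted p under 0.05 was reached by 5 chains, beside 15% of all genes. Col6a6 (log2 fold change -3.0 ± 1.04, unadjusted p = 0.00809, adjusted p = 0.306 by edgeR) and Col6a5 (-1.84 ± 0.70, unadjusted p = 0.0153) had the smallest p, followed by Col5a3. Col6a6 had 2 counts in each of IGEL replicates 1 and 6 and 113 in IGEL replicate 4.

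In GEM against PBS the median log2 fold change was -0.10 over the chains and -0.02 over all genes. Of 38 chains 28 were lower, beside 53.5% of all genes. Only Col20a1, a fibril-associated collagen, had an unadjusted p under 0.05, beside 4.81% of all genes. Col20a1 was at 0.101 to 0.464 FPKM in 5 PBS libraries and 2.57 in PBS replicate 5, and at 0.188 to 0.365 in GEM. Its log2 fold change was -1.17 ± 0.51 (unadjusted p = 0.0315) and 0.05 without PBS replicate 5. The chains' median was 0.25 without PBS replicate 1 and 0.17 without PBS replicates 1 and 5, with 32 of 38 chains higher in the latter.

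**Figure D5:**
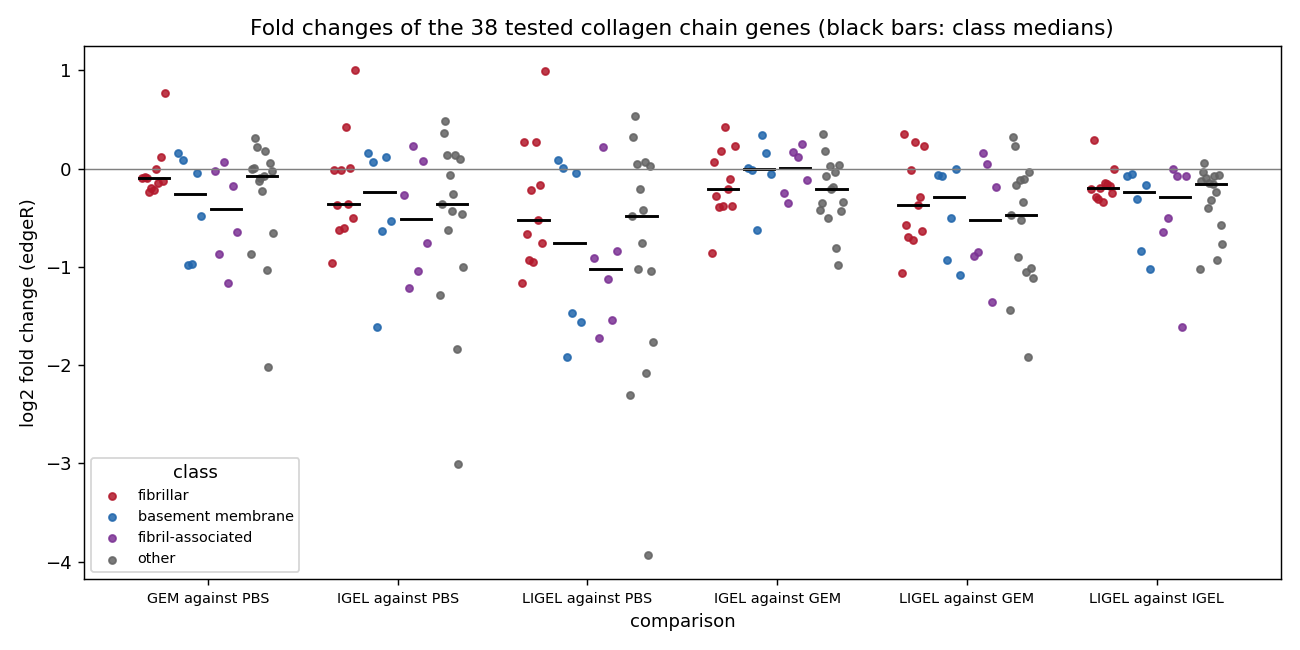
Log2 fold changes of the 38 tested chains in the 6 comparisons, 1 point per gene, coloured by class, with black bars at class medians. In LIGEL against PBS the class medians lie between -1.02 and -0.49, and the highest point in each of the first 3 comparisons is Col5a3.

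Between treated groups no chain passed the adjusted threshold. The LIGEL against GEM median was -0.43 over the chains and -0.01 over all genes, with 31 of 38 chains lower beside 52.9% of all genes. There 1 chain, Col13a1 (log2 fold change -1.44 ± 0.62, unadjusted p = 0.0284), reached an unadjusted p under 0.05, beside 3.16% of all genes. Col27a1, a small fibrillar collagen of cartilage, was at 0.753 to 1.68 FPKM in LIGEL and 1.25 to 2.32 in GEM (-0.73 ± 0.35, unadjusted p = 0.051). Col12a1, a fibril-associated collagen of stressed and healing tissue, was at 7.33 to 16.5 FPKM in LIGEL and 14.6 to 31.6 in GEM (-0.89 ± 0.45, unadjusted p = 0.0574). Both overlapped. Leaving out single libraries moved this median between -0.57 (without LIGEL replicate 4) and -0.23 (without GEM replicate 4, the GEM library highest in Col1a1).

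In LIGEL against IGEL 36 of 38 chains were lower, beside 54.9% of all genes, by a median of -0.19 (all genes -0.02). The chains vary together across libraries, so these are not 38 independent signs. The count was 37 of 38 without the A1 to A3 libraries. It was 36 of 38 without PBS replicates 1 and 5, a setting that cannot test it, since both groups keep all their libraries. Fibroblast markers were lower in 10 of 10 (median -0.37) and smooth muscle and pericyte markers in 7 of 7 (-0.37), and their part in the chains' shift was not tested. In the full fit 1 chain reached an unadjusted p under 0.05, beside 1.26% of all genes. That chain was Col22a1 (log2 fold change -1.61 ± 0.76, unadjusted p = 0.0451), a collagen of muscle-tendon junctions with 0 to 7 counts per LIGEL library and 0 to 19 per IGEL library. Col13a1 (-1.02 ± 0.61) and Col4a4 (-0.84 ± 0.52) came next, at unadjusted p of 0.110 and 0.119. IGEL against GEM had a median of -0.11 over the chains and no chain under an unadjusted p of 0.05, beside 1.58% of all genes. Its smallest p was that of Col6a5 (-0.81 ± 0.69, unadjusted p = 0.254), then Col27a1 (-0.38 ± 0.35) and Col11a1 (-0.86 ± 0.85).

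The abundant basement membrane chains had fold changes near 0. Col4a1 was at a lowest, median and highest of 60.7, 142 and 201 FPKM among PBS libraries, 112, 150 and 189 among GEM, 135, 147 and 184 among IGEL and 119, 141 and 160 among LIGEL. The lowest is PBS replicate 5, and the other 23 libraries were at 105 FPKM or more. The log2 fold change of LIGEL against PBS was 0.09 ± 0.19 for Col4a1, 0.01 ± 0.21 for Col4a2 and -0.04 ± 0.20 for Col4a5, and each changed sign under some alternatives. Col4a6, which pairs with Col4a5 in some basement membranes, had 8 to 157 counts in PBS and 0 to 39 in LIGEL (-1.56 ± 0.89, unadjusted p = 0.0921). That fold change was -0.79 without PBS replicate 1 and 0.28 without PBS replicates 1 and 5. Col4a3 and Col4a4 start 71 bases apart on opposite strands of chromosome 1 and were both lower in LIGEL than in PBS with an unadjusted p under 0.05, at log2 fold changes of -1.92 ± 0.70 and -1.47 ± 0.52 from medians of 0.0671 and 0.113 FPKM in PBS. Without PBS replicates 1 and 5 they were -0.76 and -0.22. Col4a3 was named after its values were seen.

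Of the remaining abundant chains, Col16a1 was at a median of 42.0 FPKM in PBS and 45.8 in LIGEL (log2 fold change 0.22 ± 0.22), Col18a1 at 42.1 and 51.9 (0.54 ± 0.31, unadjusted p = 0.0978), Col15a1 at 38.2 and 36.5 (-0.49 ± 0.37) and Col6a1 at 105 and 109 (-0.21 ± 0.29). Without PBS replicate 5 the fold change of Col16a1 was 0.0372 and that of Col18a1 0.33, and without PBS replicate 1 that of Col15a1 was -0.079 and that of Col6a1 0.14. Col7a1, whose product anchors epithelium to the stroma, had medians of 29.7 FPKM (PBS), 36.8 (GEM), 37.1 (IGEL) and 34.7 (LIGEL), and its log2 fold change in LIGEL against PBS was 0.02 ± 0.21. Its highest value, in PBS replicate 5, depends on scaling: it was 63.9 FPKM with TMM factors and 35.0 per megacount of the library total, where IGEL replicate 6 was highest at 51.1.

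Genes that build, cut, bind or degrade collagen were read from fixed lists, and edgeR called none in any comparison. In LIGEL against PBS, of 18 tested folding and modification genes 0 had an unadjusted p under 0.05 (median log2 fold change 0.15), where 20.5% of all genes did. P4ha1, a catalytic subunit of the prolyl hydroxylase that stabilises the helix, was at 258 ± 79.3 CPM in LIGEL and 164 ± 68.2 in PBS (0.65 ± 0.33, unadjusted p = 0.0602), and Ppib, a prolyl isomerase, at 77.6 ± 4.41 and 107 ± 72.0 (-0.47 ± 0.23, unadjusted p = 0.0538). Of 7 tested propeptide processing genes 2 were under that p, both lower: the N-propeptidases Adamts2 (-0.97 ± 0.43, unadjusted p = 0.0348) and Adamts3 (-1.41 ± 0.58, unadjusted p = 0.0235).

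Of 9 collagen receptor genes 2 had an unadjusted p under 0.05 in LIGEL against PBS: Itga11, the fibroblast collagen integrin (3.56 ± 1.94 against 9.88 ± 10.9 CPM, log2 fold change -1.47 ± 0.58), and Itga2, an epithelial and platelet one (28.6 ± 5.30 against 17.6 ± 7.37 CPM, 0.70 ± 0.29). Of 7 breakdown genes 3 were under it, with the proteases Mmp9 (501 ± 241 against 219 ± 155 CPM, 1.19 ± 0.47) and Mmp13 (74.7 ± 39.7 against 29.9 ± 23.2 CPM, 1.32 ± 0.61) higher and Mmp2 (164 ± 59.5 against 279 ± 177 CPM, -0.76 ± 0.36) lower. Of 14 basement membrane partners 4 were under it, all lower, among them the laminin chain Lama2 (4.84 ± 3.59 against 29.1 ± 30.6 CPM, -2.59 ± 0.78). Over all 14 partners 8 were higher and 6 lower, with a median log2 fold change of 0.02. Over the 55 tested genes of these lists, an unadjusted p under 0.05 was reached by 11 in LIGEL against PBS, 8 in IGEL against PBS, 3 in LIGEL against GEM and 0 in the other 3 comparisons. The shares of all genes tested were 20.5, 15 and 3.16% in the first 3 of these, so the first 2 counts are close to the background.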

How the data were processed

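The authors deposited 1 table of raw read counts per gene for 54532 genes, with a gene length and coordinates in other columns. HISAT2, featureCounts, Subread and build mm10 are listed in the submitters' processing notes. Versions, annotation release and strand setting are not given in the sources used here. All 24 count columns matched a sample label by name.

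Counts were tested in R 4.3.3 with edgeR 4.0.16. FilterByExpr (min.count 10, min.total.count 15) kept 19253 genes, which hold all but 0.0666% of the counts. Libraries were scaled with TMM factors, and 1 quasi-likelihood model over all 24 samples gave 6 contrasts, with Benjamini-Hochberg adjustment over all genes tested. It was tested on simulated data. FPKM and CPM use TMM-scaled totals, log2 CPM adds 0.5, and chain ratios are per length. Ratios and correlations were tested by permutation in Python with scipy 1.17.1. DESeq2 1.42.0 and limma 3.58.1 (voom with sample quality weights) were alternatives, with RLE or no composition scaling, no filter, 12 samples only, the replicate number as a block, the A1 to A3 libraries left out or as a term, and each sample left out in turn. Settings added with the data in view were transcript lengths, PBS replicates 1 and 5 left out together, and 4 of the 13 correlated pairs.

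Named genes are the 4 highest of each class, the 3 with the smallest p of each contrast, every called chain, the chains of a ratio or correlation, and the 2 genes of smallest p of each pathway list in LIGEL against PBS. One gene that this rule names is not reported here. Mmp2, Col4a3 and other genes outside the rule were named with their values in view. The members, classes and lists were chosen with earlier results of these data known. RefSeq promoter windows were read from a supplied table, and windows that overlap an annotated exon were not printed.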

Additional observations from a re-analysis of the deposited data

Results flagged for a closer look

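Among 132 groups of 6 values checked, 13 held a library with a gap to its nearest neighbour that was large for the group's range. For independent values from a normal distribution the rule flags about 1 in 20. These groups reuse the same libraries, their chains vary together and the values were not log-transformed, so the 13 cannot be set against that rate. GEM replicate 4 gave 5 of them: Col1a2 at 320 FPKM (next 160), Col15a1, the type XV chain of vessel walls, at 85.2 FPKM (next 49.0), Col5a1 at 137 FPKM (next 96.8), a collagen share of 3.03% of counts (next 1.86%), and the lowest Col4a1 to Col4a2 ratio, 1.25 (next 1.46). PBS replicate 5 gave 4: Col7a1 at 63.9 FPKM (next 35.8), Col13a1 at 1.82 FPKM (next 0.422), Col20a1 at 2.57 FPKM (next 0.464) and Col9a3, a fibril-associated chain of cartilage, at 2.47 FPKM (next 0.849). PBS replicate 1 was far above its group in Col3a1 (1110 FPKM, next 527) and Col14a1 (27.5 FPKM, next 11). Col3a1 in LIGEL replicate 4 (499 FPKM, next 330) and Col4a1 in IGEL replicate 5 (184 FPKM, next 150) stood above the other libraries of their groups.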

How the results depend on the processing

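The count of called collagen chains stayed at 0 in every comparison under each alternative but one: DESeq2 called 4 in LIGEL against PBS. Leaving out each sample in turn gave 0 chains throughout, and 0 of 36 ratio tests passed adjustment. Some of these settings did call other genes when a treated group was set beside PBS. Without PBS replicate 5, edgeR called 173 of 19525 genes for LIGEL, 18 for IGEL and 0 for GEM. Without PBS replicates 1 and 5 together it called 521 of 19827 genes for LIGEL, 692 for IGEL and 119 for GEM. Whether 0 of 38 chains differs from these shares was not tested. The labels name no pairing of same-numbered samples. Correlations of their deviations from the group means ran from -0.593 to 0.708, best with the own number in 0 to 2 of 6. Between treated groups they were 0.484 to 0.708 for replicates 1 and 4, and -0.569 to 0.19 for the other numbers. Such correlations cannot show whether samples were paired. With the replicate number as a block 0 chains were called, and the LIGEL against PBS median was -0.62.

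Sign changes touched folds near 0, Col20a1 and Col4a6. Col20a1 in GEM against PBS became 0.31 in limma voom and 0.31 without PBS replicates 1 and 5, and ran from -1.39 to 0.0528 when single libraries were left out. In LIGEL against PBS it became 0.25 and 0.36 under the first and second of these and ran from -1.35 to 0.11. In that comparison Col4a2 became -0.0044 in DESeq2, -0.056 in voom, -0.0045 with RLE scaling, -0.0181 with 12 samples and -0.0022 without PBS replicates 1 and 5 (single libraries left out: -0.14 to 0.17). Col7a1 became -0.0045, -0.0058 and -0.0362 in DESeq2, RLE and 12 samples, -0.0632 without the A1 to A3 libraries and -0.0599 with a term for them (single libraries: -0.0528 to 0.28). Col4a5 became 0.0284 in voom, 0.0767 on library totals, 0.0374 with the A1 to A3 term and 0.11 without PBS replicates 1 and 5 (single libraries: -0.13 to 0.13). Without PBS replicates 1 and 5, Col4a6 became 0.28 and Col6a1 0.0406. Single libraries moved Col4a1 from -0.0604 to 0.24, Col5a1 from -0.36 to 0.17 and Col6a1 from -0.37 to 0.14. The correlation of Col1a1 with Col18a1 became 0.115 without the 2 farthest libraries and 0.098 without the A1 to A3 libraries. The cause of these changes was not tested. On library totals the LIGEL against PBS medians were 0.10 over all genes and -0.53 over the chains. Counting depth was low for minor chains: Col6a5 had 2 to 123 counts per library and Col22a1 0 to 20.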
